A study of Vitis vinifera with 8 samples.

Results

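Berries of a microvine were compared on the 2 sides of véraison, the onset of ripening when a grape berry softens, colours and fills with sugar, in plants that had not been heated. The comparison rests on 4 of the 8 libraries of the study, 2 of pre-véraison berries taken 5 to 6 weeks after flowering and 2 of post-véraison berries taken 12 to 14 weeks after flowering, all sampled at 16 °C at 9 AM. Each library listed 25771 genes, and 16777 of them reached 1 RPKM (reads per kilobase of gene, scaled by the reads of the library) in at least 2 of the 8 libraries and were tested. The other 4 libraries came from berries of both stages sampled at 10 AM, 1 hour after the room was raised to 38 °C, and give a second stage comparison that shares no library with the first. Every group was Vitis vinifera L1 Pinot Meunier microvine, a dwarf line regenerated from the outer cell layer of Pinot Meunier that carries a mutant DELLA gene of the gibberellin pathway, so that allele was present at both stages. The tissue was deseeded berries, skin and flesh together, and the study states 2 biological replicates a group.

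Before véraison a grape berry is a green, hard, photosynthetic organ that grows by cell division and expansion and stores malic acid and tannins. At véraison it changes to an organ that imports sugar, degrades acid and, in dark cultivars, makes anthocyanins in its skin. Thaumatin-like proteins and chitinases are known as the main soluble proteins of ripe grapes. In berry extracts of this kind fewer cells of a type and less RNA per cell cannot be told apart.

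The libraries held 6.05e+06 and 7.05e+06 reads before véraison and 8.17e+06 and 1.12e+07 after it, as recovered from the RPKM steps. The 10 most abundant genes took 7.80 and 11.7% of the reads before véraison and 26.6 and 24.8% after it. Genes 100245999 and 100263164, which the name table used here does not hold, took 6.99 and 6.52% of the reads in post-véraison replicate 1 and 7.51 and 5.67% in replicate 2. RPKM divides by all reads of a library, and the median tested gene lay 0.52 log2 units lower after véraison, a shift that fell to -0.01 when libraries were scaled on the median ratio of their genes. Calls are therefore given on the RPKM scale beside calls made in the same direction under all 4 scalings tried. Another pair of abundant unnamed genes stood apart between replicates, at 7406 and 26178 RPKM and at 7033 and 23187 RPKM in the pre-véraison libraries, and at 20736 and 9873 RPKM and at 18456 and 10115 RPKM in the post-véraison libraries. Neither was called between the stages.

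Of the 16777 tested genes, 2498 (14.9%) were higher and 9557 (57.0%) lower after véraison at a limma adjusted p under 0.05, together 71.9% of the genes tested. Median-ratio scaling gave 5341 higher (31.8%) and 5630 lower (33.6%). Under all 4 scalings 2490 genes (14.8%) were higher and 4932 (29.4%) lower. The higher calls on RPKM thus nearly all held under every scaling tried, and many of the lower ones did not. Each other scaling moved the median gene upward from -0.52, to -0.01 (median ratio), 0.05 (quantile normalization) and -0.30 (10 most abundant genes left out). Such a shift tends to move higher calls away from 0 and lower calls toward it, so this does not rank rises above falls. Differences of at least 2-fold made up 1182 of the higher and 5045 of the lower calls on the RPKM scale, and 2153 and 2881 with median-ratio scaling. In 3273 genes (19.5%) both post-véraison libraries lay above both pre-véraison ones, and in 11143 (66.4%) below them. On the scale of log2(RPKM + 1), 151 genes lay more than 4 units higher and 170 more than 4 units lower, and with median-ratio scaling 182 and 107.

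**Figure D1:**
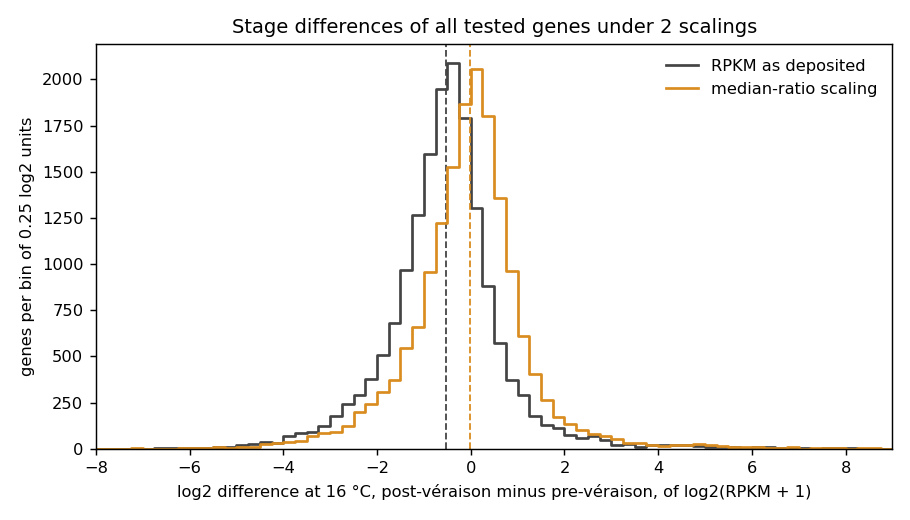
Distribution of the log2 difference between post- and pre-véraison berries at 16 °C over 16777 tested genes, on RPKM as deposited and after median-ratio scaling, in genes per bin of 0.25 log2 units. Dashed lines mark the medians, -0.52 on RPKM and -0.01 after median-ratio scaling, and the long tails on both sides are present under both scalings.

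The stage labels were checked against marker genes. Of the markers of ripening, UFGT, GST4, GRIP22, MRIP1 and TL3 were higher in both post-véraison libraries, while the hexose transporter gene HT6 was lower. Of the markers of green berries, CHLH, PSBP1, PPO, PIP1;1 and LAR2 were lower after véraison, ANR was lower on the RPKM scale, LAR1 was at 0.459 RPKM or less in all 4 libraries and MYBPA1 went the other way. The MADS box gene AG, taken as a flower or ovule marker, was at 294 and 316 RPKM before véraison and 119 and 120 RPKM after it. Of the other flower genes, AP1 and MADS9 were listed at 0 and AP3 was at 0.278 RPKM or less. TM6, of the same list, was at 129 and 114 RPKM before véraison and 108 and 104 RPKM after it. MADS1, also taken as a flower or ovule marker, was at 231 and 206 RPKM before and 97.2 and 110 RPKM after it. The seed coat gene MADS5 was at 2.73 and 2.64 RPKM before véraison and at 4.55 and 5.05 RPKM after it, a rise that missed the threshold when pre-véraison replicate 1 or 2 or post-véraison replicate 2 was left out (limma adjusted p = 0.050, 0.059 and 0.074). Its part in the results was not tested.

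Most genes of early flavonoid and anthocyanin synthesis rose. Of the 11 members of this list, all of them tested, 10 were higher and 1 lower after véraison on the RPKM scale, and 10 were higher and none lower under all 4 scalings, against 14.8% of all tested genes. The median log2 difference of the members was 2.05, against -0.52 over all tested genes. Naringenin chalcone, the first product of the pathway, is made by chalcone synthase, for which 3 genes are named. CHS3 was at 1.94 and 2.55 RPKM before véraison and at 284 and 319 RPKM after it, 134-fold higher in the mean. CHS2 was at 10.7 and 12.1 RPKM before and 54.1 and 44.1 RPKM after véraison. CHS1 was at 10.4 and 9.98 RPKM before and 17.0 and 12.0 RPKM after it. The 3 genes did not move alike, since CHS3 was the lowest of them before véraison and the highest after it. The log2 differences were 6.55 ± 0.21 (SE) for CHS3, 2.01 ± 0.24 for CHS2 and 0.45 ± 0.17 for CHS1, with limma adjusted p-values of 5.1e-09, 3.2e-05 and 0.038. The call of CHS1 was lost without pre-véraison replicate 1 or 2 (limma adjusted p = 0.086 and 0.12), without post-véraison replicate 1 (0.32), with no filter on low values (0.062) and with only the 4 unheated libraries in the fit (0.063).

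The next enzymes of the pathway rose by less than CHS3. CHI, chalcone isomerase, was at 12.9 and 12.2 RPKM before véraison and 79.7 and 78.7 RPKM after it. F3H, flavanone 3-hydroxylase, was at 4.94 and 3.13 RPKM before and 22.5 and 16.9 RPKM after it. Neither gene's libraries overlapped between the stages, which held in this direction for 19.5% of all tested genes. The log2 differences of CHI and F3H were 2.56 ± 0.10 (SE) and 2.05 ± 0.21. The B ring of the pigment is hydroxylated by F3'H toward cyanidin and by F3'5'H toward delphinidin. F3'H went from 57.9 and 71.5 RPKM to 160 and 146 RPKM, and F3'5'H from 0.728 and 0.882 RPKM to 7.36 and 7.83 RPKM. The level of F3'H stayed above that of F3'5'H in all 4 libraries, although the log2 difference of F3'5'H, 2.25 ± 0.27, was the larger of the pair, beside 1.24 ± 0.11 for F3'H. DFR, dihydroflavonol reductase, rose from 25.8 and 23.1 RPKM to 43.8 and 39.4 RPKM.

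LDOX, which makes the anthocyanidin itself, was the exception, at 104 and 94.0 RPKM before véraison and 63.8 and 49.7 RPKM after it. Its log2 difference was -0.80 ± 0.17 (SE, limma adjusted p = 0.0015), and with median-ratio scaling it was -0.19 (limma adjusted p = 0.36). UFGT and GST4, which act after LDOX, were almost absent from green berries. UFGT, which attaches the glucose that makes a stable anthocyanin, was at 0 and 0.0971 RPKM before véraison and at 42.1 and 39.2 RPKM after it. There were 1 read before and 1146 after véraison, and scaled by library reads the ratio was 773 with a 95% counting interval of 138 to 30559. GST4, a glutathione S-transferase needed to bring anthocyanins to the vacuole, was at 0.571 and 0 RPKM before and at 332 and 325 RPKM after véraison, a depth-scaled read ratio of 1245 (counting interval 426 to 6041). ABCC1, a vacuolar transporter of glucosylated anthocyanins in grapevine, went the other way, from 110 and 106 RPKM to 19.2 and 16.6 RPKM, a log2 difference of -2.53 ± 0.11 (SE, limma adjusted p = 3.2e-08).

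Stilbenes and anthocyanins draw on the same precursor, p-coumaroyl-CoA. Of 7 tested phenylpropanoid and stilbene genes 4 were higher and 1 lower on the RPKM scale and under all 4 scalings, with a median log2 difference of 4.88. Over all tested genes the shares were 14.9% higher and 57.0% lower on the RPKM scale and 14.8% and 29.4% under all 4 scalings, and each list below is read against these. PAL, phenylalanine ammonia-lyase at the head of the pathway, was at 0.626 and 0.119 RPKM before véraison and at 53.5 and 39.8 RPKM after it. A second ammonia-lyase gene, GVVPAL2, went from 0.353 and 0.121 RPKM to 41.5 and 30.0 RPKM. Both were under 1 RPKM in each green library and above 29 RPKM in each ripening one. VINST1, a stilbene (resveratrol) synthase, went from 1.18 and 0.462 RPKM to 88.6 and 68.3 RPKM, 95.3-fold higher. PSV368, a second stilbene synthase gene, went from 0.227 and 0.0972 RPKM to 45.0 and 30.8 RPKM. Limma log2 differences of these 4 genes ran from 4.88 ± 0.22 (SE, GVVPAL2) to 5.46 ± 0.20 (VINST1), with adjusted p-values of 3.4e-08 and 9.4e-09. 4CL, the ligase that makes p-coumaroyl-CoA, was at 5.98 and 3.76 RPKM before and 7.17 and 5.52 RPKM after véraison, and these libraries overlapped. Its log2 difference of 0.34 ± 0.21 (SE) was not called on the RPKM scale (limma adjusted p = 0.16) and was called higher with median-ratio scaling (0.86), quantile normalization (1.06) and the 10 most abundant genes left out (0.60). The methyltransferase gene OMT1 ran against the others, at 22.4 and 26.2 RPKM before véraison and 0.190 and 0 RPKM after it.

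Tannins and flavonols are colourless flavonoids made from the same intermediates. Of 3 tested tannin genes, 1 was higher and 2 lower on the RPKM scale and 1 and 1 under all 4 scalings. Of 3 flavonol genes 2 were lower on both, where 57.0% and 29.4% of all tested genes were lower. LAR2, leucoanthocyanidin reductase of tannin synthesis, was at 14.9 and 15.5 RPKM before véraison and 1.24 and 1.16 RPKM after it, 12.7-fold lower. ANR, the reductase of the parallel tannin branch, was at 3.35 and 3.98 RPKM before and 1.62 and 0.901 RPKM after it. The difference of LAR2 was -2.88 ± 0.16 log2 units (SE, limma adjusted p = 1.1e-07). That of ANR was -1.06 ± 0.29 (limma adjusted p = 0.0073), which missed the threshold with median-ratio scaling (0.076), with quantile normalization (0.23) and without post-véraison replicate 2 (0.057). In the flavonol branch, the synthase gene FLS1 was at 3.86 and 1.88 RPKM before véraison and 0.286 and 0.208 RPKM after it. MYB12, an activator of flavonol synthesis, was at 9.79 and 11 RPKM before véraison and listed at 0 in both post-véraison libraries, at least 84.5-fold lower when 3 reads over the group are taken as the floor. The flavonol regulator bZIPC22 was at 11.7 and 10.4 RPKM before and 7.95 and 10.1 RPKM after véraison, a difference that was not called (limma adjusted p = 0.19).

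Regulators of these branches went both ways. Of 14 tested MYB, MYC and WD-repeat genes, 3 were higher and 10 lower on the RPKM scale, where 57.0% of all tested genes were lower, and 3 higher and 6 lower under all 4 scalings, where 29.4% were. MYBC2-L1, a repressor of flavonoid synthesis, fell from 84.1 and 65.6 RPKM to 10.8 and 13.3 RPKM. MYB4A, a repressor of phenylpropanoid genes, fell from 51.5 and 51.6 RPKM to 27.6 and 24.6 RPKM. WDR1, of the WD-repeat family that forms complexes with MYB and MYC factors, fell from 45.9 and 48.8 RPKM to 15.9 and 15.3 RPKM. The log2 differences of the 3 genes were -2.53 ± 0.20, -0.96 ± 0.10 and -1.54 ± 0.10 (SE), and limma gave them adjusted p-values of 1.5e-06, 1.1e-05 and 4.6e-07. MYBCS1 fell from 42.3 and 37.9 RPKM to 5.24 and 5.46 RPKM. MYC1, the basic helix-loop-helix partner of the anthocyanin MYB factors, was at 16.9 and 26.8 RPKM before and 14.5 and 14.1 RPKM after véraison, and its call (limma adjusted p = 0.019) was absent under each other scaling (0.22 to 0.99), with only the 4 unheated libraries in the fit (0.059), without pre-véraison replicate 2 (0.18) and without either post-véraison replicate (0.054 and 0.065). Of the higher genes, MYB24 went from 0.182 and 0 RPKM to 12.8 and 8.72 RPKM. MYBPA1, known as an activator of tannin synthesis, went from 0.994 and 0.746 RPKM to 11.1 and 6.08 RPKM, while both tannin reductases above were lower.

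**Figure D2:**
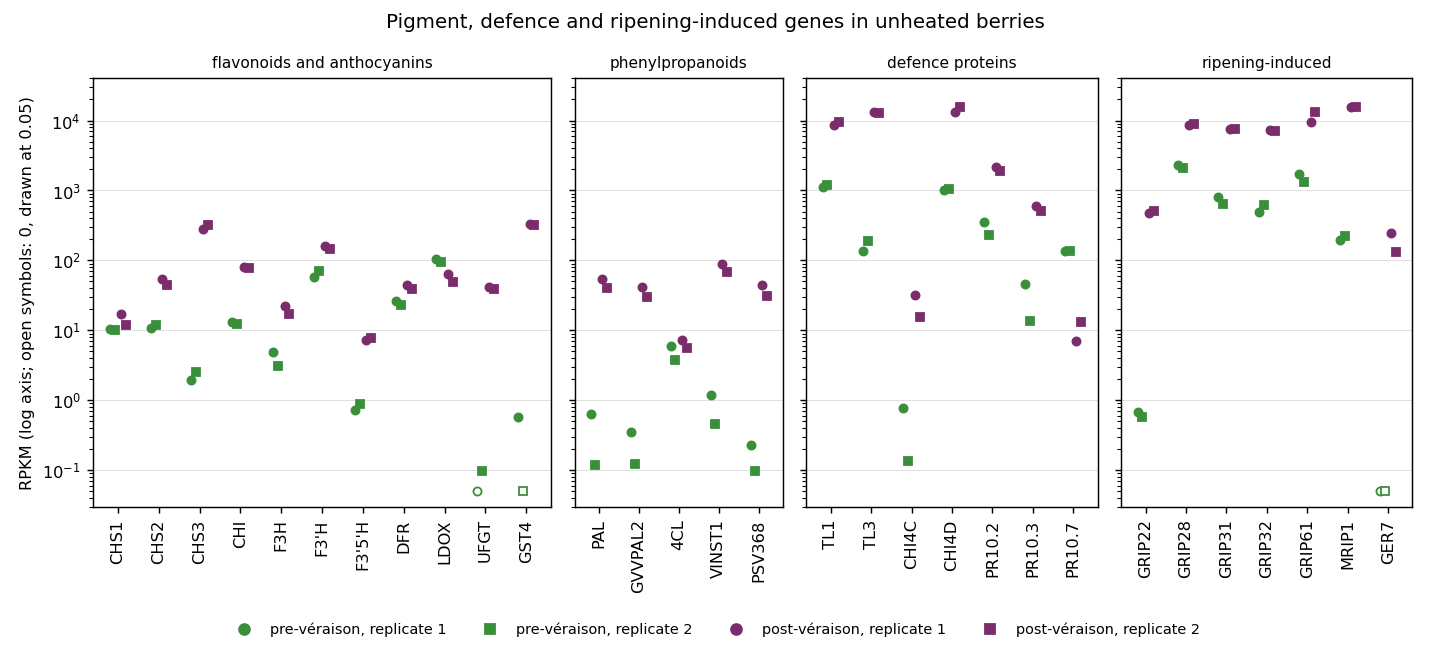
RPKM of pigment, phenylpropanoid, defence and ripening-induced genes in the 4 unheated libraries (log axis, 1 symbol per library, open symbols for 0). CHS3, UFGT, GST4, PAL, VINST1, TL3, MRIP1 and GRIP22 are separated between the stages by a wide gap, LDOX and PR10.7 lie lower after véraison, and the libraries of 4CL overlap.

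Genes of defence proteins were among the named genes with the highest levels after véraison. Among 14 tested pathogenesis-related genes 9 were higher and 3 lower, on the RPKM scale and under all 4 scalings alike, with a median log2 difference of 2.0, where 14.8% of all tested genes were higher and 29.4% lower under all 4. TL3, a thaumatin-like protein gene, was at 134 and 188 RPKM before véraison and 13170 and 12896 RPKM after it. Its direct neighbour on the chromosome, TL1, was at 1137 and 1212 RPKM before and 8698 and 9441 RPKM after it. TL1 was thus the more abundant of the 2 neighbours in green berries and TL3 in ripening ones. The class IV chitinase gene CHI4D, whose enzyme cuts fungal cell wall chitin, went from 1023 and 1049 RPKM to 13115 and 15692 RPKM. A second class IV chitinase gene, CHI4C, went from 0.786 and 0.135 RPKM to 32.0 and 15.3 RPKM. The log2 differences were 6.35 ± 0.18 (SE) for TL3, 2.95 ± 0.17 for TL1, 3.79 ± 0.18 for CHI4D and 4.03 ± 0.31 for CHI4C.

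The PR10 genes, a family of small ribonuclease-like proteins induced by pathogens, moved in both directions. PR10.2 rose from 358 and 228 RPKM to 2151 and 1914 RPKM. PR10.3 rose from 46.0 and 13.6 RPKM to 593 and 507 RPKM. PR10.4 rose from 1.03 and 0.589 RPKM to 8.13 and 2.40 RPKM. Each of the 3 was higher in both post-véraison libraries than in either pre-véraison one, as were 19.5% of all tested genes. PR10.7, on the other hand, fell from 135 and 137 RPKM to 7.02 and 13.1 RPKM, and PR10.5 fell from 54.7 and 74.5 RPKM to 3.79 and 10.4 RPKM. The log2 differences of PR10.3 and PR10.7 were 4.39 ± 0.40 and -3.69 ± 0.21 (SE), and limma gave adjusted p-values of 4.3e-06 and 1.3e-07. All of these genes lie on one chromosome in the reference table. PR10.8, PR10.9, PR10.7, PR10.6 and PR10.5 are direct neighbours in this order, and 2 genes separate PR10.5 from PR10.4 while 1 gene separates PR10.4 from PR10.2 and PR10.2 from PR10.3. On the RPKM scale the 2 genes called lower thus lay in the first stretch and the 3 called higher in the second. The other 2 of the 7 tested, PR10.8 and PR10.9, lay in the first stretch and were not called. Calls made under all 4 scalings, 3 higher and 2 lower, fell on the same genes. With median-ratio scaling alone 4 of the 7 were called higher, so this split by position does not hold for that scaling. How reads matching several members of such a family were counted is not given in the sources used here, so levels of single PR10, stilbene synthase, ammonia-lyase and chalcone synthase genes are uncertain.

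Genes first found as ripening-induced were not uniformly higher. Of 12 tested members of the ripening-induced and germin-like list, 7 were higher and 3 lower on the RPKM scale (all tested genes: 14.9 and 57.0%), and 6 higher and 2 lower under all 4 scalings (14.8 and 29.4%). GRIP22 was at 0.672 and 0.577 RPKM before véraison and 470 and 508 RPKM after it, 783-fold higher. Its log2 difference of 8.24 ± 0.16 (SE, limma adjusted p = 7.3e-10) was the largest rise among genes with a descriptive name on the scale of log2(RPKM + 1). By the ratio of group means GST4 (1152-fold) and UFGT (837-fold) rose more, and GER7 was listed at 0 before véraison. MRIP1, a proline-rich protein gene, went from 196 and 221 RPKM to 15717 and 15867 RPKM. GRIP61 went from 1692 and 1303 RPKM to 9610 and 13042 RPKM. MRIP1 and GRIP61 were among the 5 named genes of highest level after véraison, and GRIP61 was already among them before it. GRIP31 and GRIP32 rose from 798 and 639 RPKM to 7525 and 7579 RPKM and from 496 and 626 RPKM to 7331 and 6993 RPKM. GRIP28 was at 2280 and 2129 RPKM before and 8634 and 8829 RPKM after it, a rise of 1.99 ± 0.19 log2 units (SE) that was called under 3 scalings and not with quantile normalization (0.13, limma adjusted p = 0.61). GRIP55 fell from 53.7 and 58.8 RPKM to 15.4 and 16.1 RPKM.

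The germin-like genes, whose cell wall proteins include oxidases, were on opposite sides. GER7 was listed at 0 in both pre-véraison libraries and reached 250 and 133 RPKM in the later ones, which is at least 722-fold higher with 3 reads over the group as the floor. GER6 was at 16.7 and 15.8 RPKM before véraison and 0.793 and 1.81 RPKM after it. Neither gene's libraries overlapped, which held for 19.5% of all tested genes in the direction of GER7 and 66.4% in that of GER6. Cell wall softening is part of ripening, and the pectate lyase gene PL1 was lower, at 1055 and 781 RPKM before and 126 and 111 RPKM after véraison (log2 difference -2.93 ± 0.14 SE, limma adjusted p = 5.5e-08).

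The photosynthetic machinery of the green berry had far fewer transcripts after véraison. All 4 members of the chlorophyll and photosynthesis list were tested and lower under all 4 scalings, against 29.4% of all tested genes. CHLH, a subunit of the magnesium chelatase of chlorophyll synthesis, was at 145 and 137 RPKM before véraison and 5.37 and 7.79 RPKM after it. PSBP1, of the oxygen-evolving complex of photosystem II, was at 622 and 594 RPKM before and 27.4 and 25.7 RPKM after it. The second such gene, PSBP2, went from 16.6 and 12.5 RPKM to 0.478 and 1.13 RPKM. NDHM, of the chloroplast NADH dehydrogenase-like complex, went from 20.6 and 18.0 RPKM to 1.62 and 1.44 RPKM. No library of one stage overlapped the other in any of the 4 genes, which held in this direction for 66.4% of all tested genes. The log2 differences ran from -3.0 ± 0.16 (SE, NDHM) to -4.47 ± 0.18 (PSBP1), with limma adjusted p-values of 9.0e-08 and 1.8e-08.

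Carotenoids are made in the same plastids and are the source of abscisic acid and of aroma compounds. Of the 6 genes of that list 4 were lower and 1 higher on the RPKM scale and under all 4 scalings, beside 57.0% of all tested genes lower on the RPKM scale and 29.4% under all 4 scalings. PDS1, phytoene desaturase early in the pathway, fell from 26.0 and 23.7 RPKM to 8.82 and 6.90 RPKM. LBCY1, a lycopene beta-cyclase, fell from 17.8 and 19.1 RPKM to 2.92 and 3.35 RPKM. ZEP, the zeaxanthin epoxidase, fell from 30.4 and 32.9 RPKM to 5.13 and 4.41 RPKM, a log2 difference of -2.50 ± 0.13 (SE, limma adjusted p = 6.1e-08). The 2 cleavage dioxygenases, which cut carotenoids into smaller volatiles, parted. CCD1 fell from 326 and 336 RPKM to 167 and 188 RPKM. CCD4b rose from 54.9 and 52.2 RPKM to 96.1 and 75.9 RPKM, a log2 difference of 0.66 ± 0.12 (SE, limma adjusted p = 5.1e-04). BCH1, a carotene hydroxylase, was at 1.18 and 1.27 RPKM before and 2.96 and 1.03 RPKM after véraison, and these libraries overlapped.

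Water channels were lower in ripening berries. Of 10 aquaporins, all tested, 8 were lower and 0 higher on the RPKM scale and under all 4 scalings, against 29.4% of all tested genes lower under all scalings, and the median log2 difference was -2.13. PIP1;3, a plasma membrane aquaporin, was the most abundant of them and of all named genes before véraison, at 2823 and 2614 RPKM, and was at 961 and 903 RPKM after it. PIP2 was at 179 and 214 RPKM before and 10.5 and 12.1 RPKM after véraison. PIP1;1 was at 25.9 and 26.7 RPKM before and 0.103 and 0.150 RPKM after it, a ratio of 202 from 409 and 3 reads after scaling by library reads (95% counting interval 68.7 to 984). Their log2 differences were -1.54 ± 0.14, -4.0 ± 0.12 and -4.60 ± 0.17 (SE), so the highest gene changed least of the 3. PIP2;2 fell from 475 and 525 RPKM to 146 and 145 RPKM.

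In the vacuole membrane, TIP2;1 fell from 236 and 253 RPKM to 50.8 and 35.7 RPKM, and TIP1;1 fell from 67.0 and 72.0 RPKM to 13.5 and 8.68 RPKM. TIP1;2 fell from 384 and 472 RPKM to 165 and 237 RPKM. TIP4 was at 9.90 and 13.0 RPKM before véraison and 0 and 0.0771 RPKM after it. All 4 tonoplast genes were separated between the stages, as were 66.4% of all tested genes in this direction. The remaining plasma membrane genes were not called on the RPKM scale. PIP2;1 was at 627 and 706 RPKM before and 509 and 643 RPKM after véraison. PIP2;3 was at 384 and 370 RPKM before and 269 and 418 RPKM after it. Both pairs overlapped. For PIP2;1 the log2 difference of -0.22 ± 0.13 (SE) became 0.40 with median-ratio scaling and -0.36 with quantile normalization. These were calls in opposite directions (limma adjusted p = 0.029 and 0.025).

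Sugar transport genes were divided. Of 13 tested members of the list, 3 were higher and 6 lower on the RPKM scale, and 3 higher and 5 lower under all 4 scalings. The shares over all tested genes were 14.9% higher and 57.0% lower on the RPKM scale, and 14.8% and 29.4% under all 4 scalings. A further 12 members were under the filter, among them HT9, HT10, HT11 and HT19, which were listed at 0 in all libraries. SWEET15, of the family that lets sugar out of cells, was at 87.1 and 80.8 RPKM before véraison and 1379 and 1680 RPKM after it, 18.2-fold higher. HT5, a hexose transporter of the plasma membrane, went from 0.522 and 0.448 RPKM to 33.1 and 22.6 RPKM. CWINV, the cell wall invertase that splits sucrose outside the cell, went from 3.60 and 2.65 RPKM to 7.94 and 7.48 RPKM. The log2 differences were 4.17 ± 0.13, 4.26 ± 0.19 and 1.09 ± 0.17 (SE), and limma gave adjusted p-values of 4.6e-09, 3.5e-08 and 1.9e-04.

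Other sugar carriers were higher in green berries. HT6, a hexose transporter placed at the vacuole, was at 314 and 269 RPKM before véraison and 125 and 155 RPKM after it. HT2 fell from 54.2 and 55.0 RPKM to 12.7 and 18.5 RPKM. The sucrose transporter gene VVSUC27 fell from 11.6 and 14.7 RPKM to 0.748 and 0.996 RPKM, 15.1-fold lower. A second sucrose transporter gene, VVSUC11, was at 35.9 and 49.5 RPKM before and 44.9 and 41.2 RPKM after véraison, with overlapping libraries. Its log2 difference of 0.03 ± 0.15 (SE) was not called on the RPKM scale. It was called higher with median-ratio scaling (0.63, limma adjusted p = 0.0064) and quantile normalization (0.46, limma adjusted p = 0.031). The vacuolar carrier gene TMT2 was at 43.4 and 35.6 RPKM before and 23.6 and 27.8 RPKM after it, a call (limma adjusted p = 0.0014) that was absent with median-ratio scaling (0.99) and quantile normalization (0.31). HXK2, a hexokinase gene, fell from 28.9 and 31.3 RPKM to 6.58 and 6.64 RPKM. PMT4, named as a polyol transporter, fell from 11.7 and 10.4 RPKM to 3.74 and 3.50 RPKM.

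**Figure D3:**
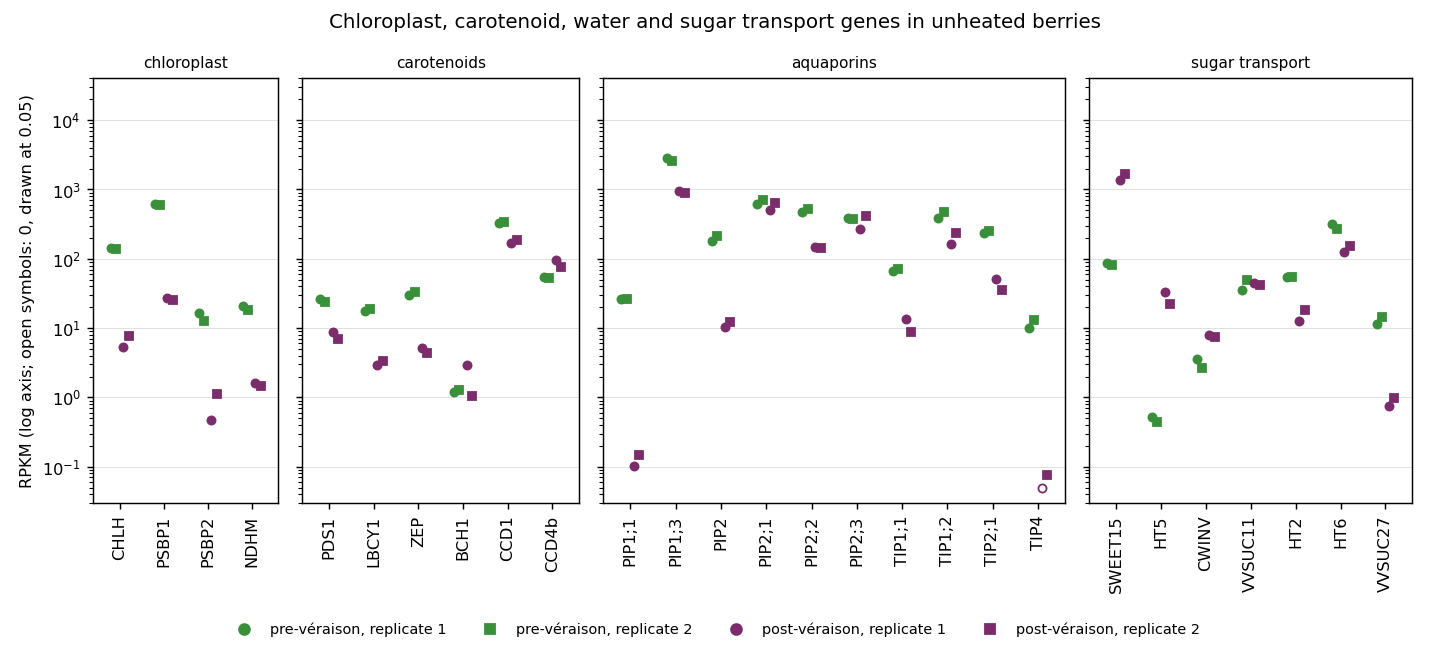
RPKM of chloroplast, carotenoid, aquaporin and sugar transport genes in the 4 unheated libraries (log axis, 1 symbol per library, open symbol for 0). The 4 chloroplast genes and 8 of the 10 aquaporins lie lower after véraison, while SWEET15, HT5 and CWINV lie higher.

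Of 5 tested acid and ion genes, 2 were lower and 1 higher on the RPKM scale and under all 4 scalings. Among all tested genes 57.0% were lower and 14.9% higher on the RPKM scale, and 29.4% and 14.8% under all 4 scalings. Malic enzyme, which breaks down malate, was represented by NADP-ME and VVME2, at 674 and 644 RPKM and at 166 and 149 RPKM before véraison and at 236 and 302 RPKM and 66.1 and 60.1 RPKM after it. Both fell by 1.30 on the log2 scale. MDH, malate dehydrogenase, was at 147 and 125 RPKM before and 104 and 126 RPKM after it. MDH was not called on the RPKM scale. The potassium channel gene K1.2 went from 3.85 and 3.98 RPKM to 27.7 and 29.3 RPKM, 7.29-fold higher (log2 difference 2.59 ± 0.13 SE, limma adjusted p = 5.0e-08). The outward potassium channel gene SOR was at 10.9 and 9.02 RPKM before and 8.43 and 7.29 RPKM after véraison. SOR was not called on the RPKM scale.

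Redox genes held the largest fall among genes with a descriptive name on the scale of log2(RPKM + 1), that of PPO. By the ratio of group means TIP4 (297-fold), OMT1 (256-fold) and PIP1;1 (208-fold) fell further. PPO, the polyphenol oxidase that browns damaged fruit, was at 172 and 199 RPKM before véraison and 0.487 and 2.83 RPKM after it, 112-fold lower, with a log2 difference of -6.29 ± 0.38 (SE, limma adjusted p = 2.2e-07). By ratio, though not in RPKM, the 2 post-véraison libraries differed from each other in this gene more than the pre-véraison ones did. The peroxidase gene POD1 fell from 58.7 and 53.7 RPKM to 2.57 and 3.01 RPKM. SODCP, a superoxide dismutase, fell from 169 and 164 RPKM to 48.2 and 50.2 RPKM. A second superoxide dismutase gene, MNSOD, rose from 261 and 236 RPKM to 295 and 359 RPKM. It was called under all 4 scalings but not in every other alternative. Genes of disulfide-reducing proteins also rose. Trxh, an h-type thioredoxin, rose from 376 and 320 RPKM to 1106 and 1177 RPKM. TRX and the glutaredoxin gene GRX rose by 0.68 ± 0.10 and 0.71 ± 0.10 log2 units (SE). Across the 9 tested members, 4 were higher and 4 lower on the RPKM scale, and 4 and 3 under all 4 scalings. Across all tested genes these shares were 14.9% and 57.0%, and 14.8% and 29.4%.

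Calcium sensors of the CBL family and the CIPK kinases that they bind were named in number. Of 7 tested CBL genes, 6 were lower and 0 higher on the RPKM scale, and 5 lower under all 4 scalings. Of 18 CIPK genes, 6 were higher and 11 lower, and 6 and 9 under all 4 scalings. For both families the shares over all tested genes were 14.9% higher and 57.0% lower on the RPKM scale, and 14.8% and 29.4% under all 4 scalings. CIPK20 was at 43.4 and 46.4 RPKM before véraison and 629 and 622 RPKM after it. CIPK15 was at 33.9 and 32.4 RPKM before and 143 and 146 RPKM after it. On the scale of log2(RPKM + 1) these were the largest rises of the family, 3.77 ± 0.11 and 2.09 ± 0.09 (SE), and their replicates differed by little. By the ratio of group means CIPK16 rose 4.99-fold and CIPK15 4.37-fold. CIPK03, the most abundant kinase of the family at 1623 and 1794 RPKM in green berries, fell to 456 and 444 RPKM. CIPK14 fell from 98.2 and 87.5 RPKM to 35.6 and 34.8 RPKM. Among the sensors, CBL01 fell from 59.0 and 63.1 RPKM to 14.8 and 13.8 RPKM and CBL06 from 33.1 and 32.3 RPKM to 7.61 and 7.95 RPKM.

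Of 4 tested gibberellin and brassinosteroid genes 3 were lower and 1 higher on the RPKM scale and under all 4 scalings. All tested genes were 57.0% lower and 14.9% higher on the RPKM scale, and 29.4% and 14.8% under all 4 scalings. The ethylene receptor gene ETR1 was at 20.4 and 18.1 RPKM before and 16.0 and 17.1 RPKM after véraison and was not called on the RPKM scale. BR6OX1, of brassinosteroid synthesis, fell from 101 and 115 RPKM to 14.1 and 15.4 RPKM, 7.32-fold. GA2ox6, which inactivates gibberellin, fell from 5.04 and 2.04 RPKM to 0.207 and 0.377 RPKM. VVGAI1, a DELLA protein gene that restrains the gibberellin response, fell from 4.99 and 5.72 RPKM to 1.45 and 1.22 RPKM, a log2 difference of -1.44 ± 0.16 (SE, limma adjusted p = 2.2e-05). GID1A, a gibberellin receptor, was at 49.2 and 54.4 RPKM before and 66.1 and 67.9 RPKM after it, and its call was lost without pre-véraison replicate 1 (limma adjusted p = 0.073) or post-véraison replicate 2 (0.053).

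Of 8 tested MADS box and flowering genes 5 were lower and 1 higher, on the RPKM scale and under all 4 scalings. The RPKM shares over all tested genes were 57.0% lower and 14.9% higher, and those under all 4 scalings 29.4% and 14.8%. AG was at 294 and 316 RPKM before véraison and 119 and 120 RPKM after it. VFUL-L, of the FRUITFULL group, fell from 7.43 and 7.41 RPKM to 0.418 and 0.434 RPKM. FT, which encodes the mobile flowering signal, fell from 11.9 and 9.53 RPKM to 1.76 and 2.77 RPKM. These 3 genes had no overlap between the stages, like 66.4% of all tested genes in this direction. In lipid signalling, LOXA, a lipoxygenase gene, fell from 204 and 188 RPKM to 70.1 and 75.4 RPKM, OPR3, of jasmonate synthesis, fell from 66.5 and 72.1 RPKM to 27.4 and 34.6 RPKM, and the lipoxygenase gene LOX rose from 0.118 and 0.101 RPKM to 1.57 and 2.95 RPKM. The alcohol dehydrogenase genes also parted. ADH2 rose from 541 and 444 RPKM to 932 and 933 RPKM, while ADH1 and ADH3 fell from 42.8 and 35.5 RPKM to 9.30 and 5.41 RPKM and from 160 and 150 RPKM to 34.8 and 35.9 RPKM.

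**Figure D4:**
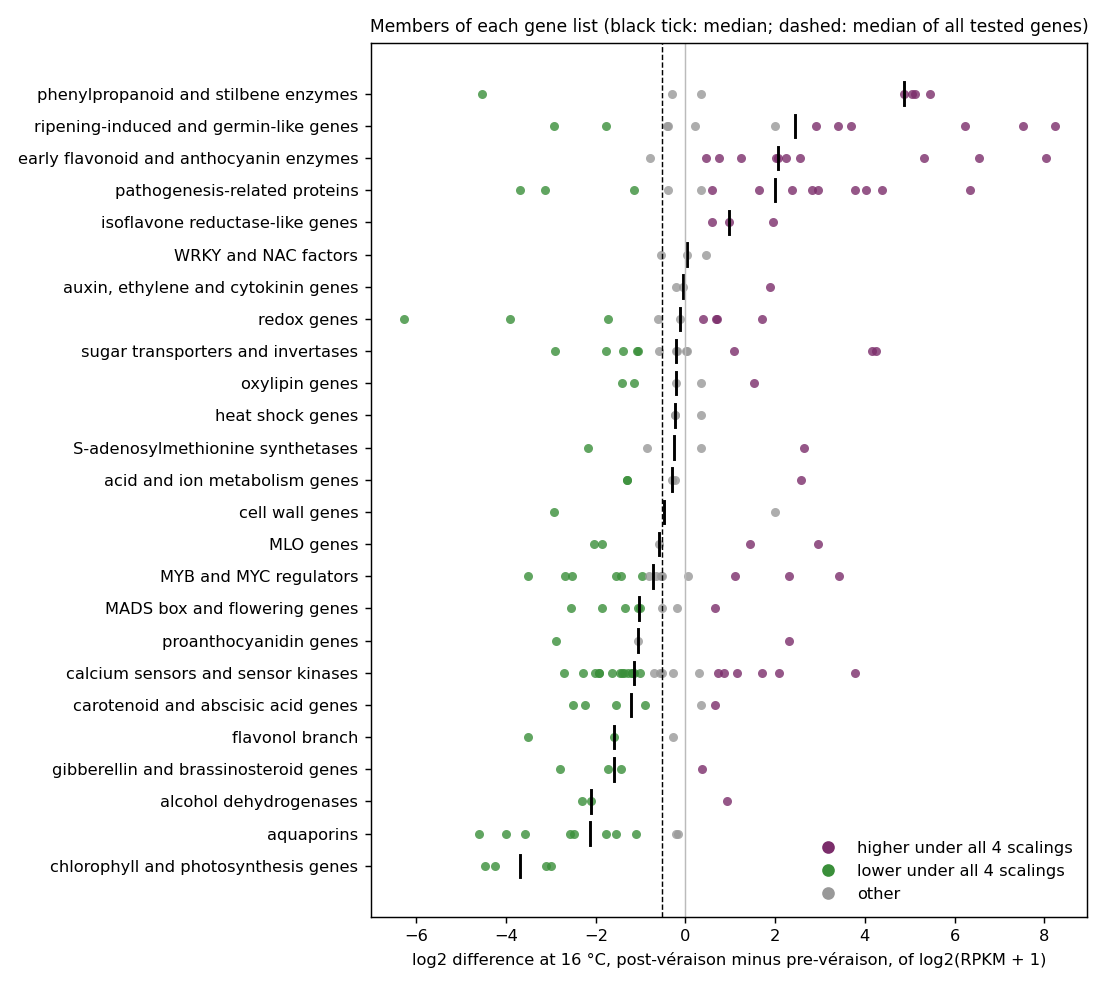
Log2 difference between post- and pre-véraison berries at 16 °C for each tested member of each gene list, with the list median as a black tick and the median of all tested genes (-0.52) as a dashed line. The medians of the phenylpropanoid and anthocyanin lists lie to the right of that line and those of the photosynthesis and aquaporin lists to its left, with OMT1, LDOX, PIP2;1 and PIP2;3 on the other side from their list's median. Redox, sugar transport and calcium genes lie on both sides.

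The heated berries gave the same comparison in libraries whose levels do not enter the differences at 16 °C. Of the 2498 genes higher after véraison at 16 °C, 2022 (80.9%) were also called higher at 38 °C, where 70.3% of all tested genes were called and 17.2% were higher, and 107 were called lower there. Of the 9557 genes lower at 16 °C, 7926 (82.9%) were also called lower at 38 °C, where 53.0% of all tested genes were lower, and 68 were called higher there. For the genes called at 16 °C under all 4 scalings, 2015 of 2490 higher ones (80.9%) and 4799 of 4932 lower ones (97.3%) had the same RPKM call at 38 °C. The calls at 38 °C used the RPKM scale alone, on which the median tested gene lay at -0.45, so the 2 sides are not equally strict. All 4 groups enter one fit, so a gene has the same standard error in both comparisons. The anthocyanin list kept its 10 higher members at 38 °C, the aquaporins had 10 lower members there and the photosynthesis list 4.

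A difference between the stage differences was called for 1254 of the tested genes (7.47%; 3.95% with the larger value at 38 °C and 3.53% with the smaller), 30 of them among the 250 tested genes with a descriptive name. HSP101 and HsfA2, the heat shock chaperone and transcription factor, were not called between the stages at 16 °C on the RPKM scale. Their log2 differences were -0.24 ± 0.17 and -0.24 ± 0.27 (SE) at 16 °C and -4.18 and -3.21 at 38 °C. HSP101 was at 7.12 and 6.34 RPKM before and 4.74 and 6.45 RPKM after véraison in unheated berries. MRIP1 rose with ripening in both, by 6.24 at 16 °C and 5.24 log2 units at 38 °C. PIP1;1 fell in both, with differences of -4.60 and -3.31 log2 units. FLS1 fell at 16 °C and had a difference of -0.23 at 38 °C that was not called.

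**Figure D5:**
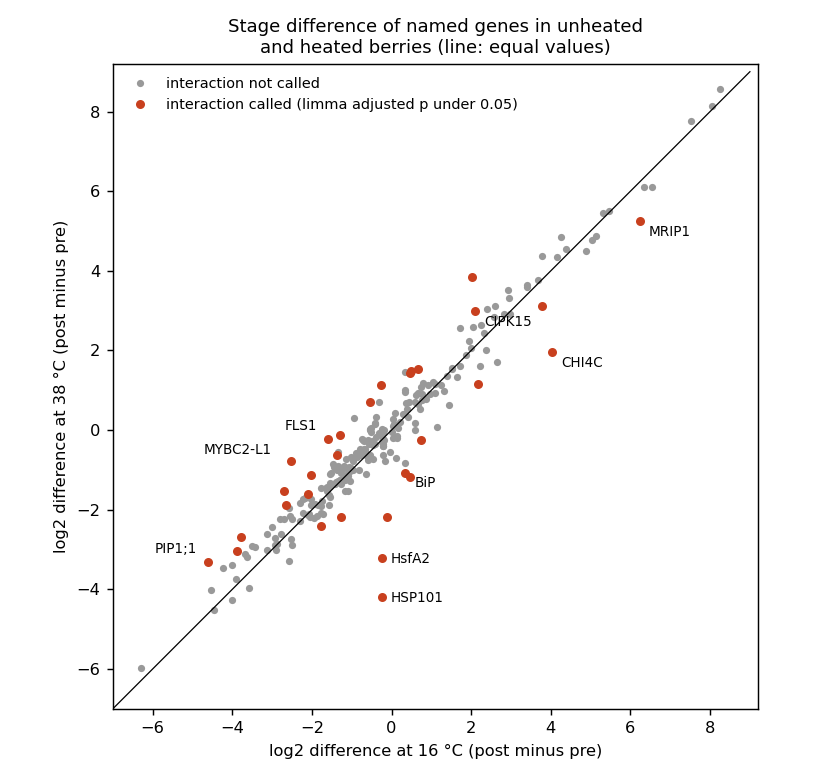
Stage difference (log2, post-véraison minus pre-véraison) of each tested gene with a descriptive name in unheated berries (horizontal axis) and heated berries (vertical axis), with a line of equal values. Most points lie near the line, and the 30 genes whose stage difference itself differed between temperatures by limma are in red, HSP101 and HsfA2 farthest below the line.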

How the data were processed

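The authors deposited 1 RPKM value per gene and library; alignment used Bowtie 0.12.7 and TopHat 1.2.0, per the submitters' processing notes. Build, annotation, counting tool and strand setting: not given in the sources used here. Genes with at least 1 RPKM in 2 of the 8 libraries were tested with limma 3.58.1 in R 4.3.3 on log2(RPKM + 1), with a mean for each of the 4 groups, an intensity trend, two-sided tests and Benjamini-Hochberg adjustment over 16777 genes (4 residual and 6.06 prior degrees of freedom), and the script was tested on simulated data. Fold changes on this scale understate changes of low genes. Nothing in the labels says that replicates came from separate plants, beyond the design text naming them biological, so p-values measure the spread between these samples.

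Whole reads were recovered from the RPKM steps for 20845 of 20845 genes above 0 in at least 3 libraries (100%, tolerance 0.001). Recovered reads may be too small by a divisor common to a gene, and 1708 genes above 0 in fewer libraries were not recovered. Intervals and floors cover counting error only, and 3 reads made 0.173 to 0.322 RPKM at the median length of 1540 bp. Replicates correlated at a Pearson r of 0.993 to 0.995 across genes, and their read numbers varied beyond counting noise, with a mean chi-square of 4.04 to 13.4 per gene.

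Names came from a reference gene table (assembly ASM3070453v1), which matched 18647 of 25771 IDs; 309 had a descriptive name and 250 of these were tested. The text names the 12 largest rises and 12 largest falls in log2(RPKM + 1) among such genes with at least 5 RPKM and no overlap. With up to 6 members of each list, 4 placeholders each way and the 5 most abundant named genes of each group, these are 131 in all. A further 17, among them CHS1, CHS2, LDOX, ABCC1, TIP1;2, TMT2 and MYC1, were added after their values were seen. Of the genes without a descriptive name, 109 rose by more than the smallest of the 12 rises and 275 fell by more than the smallest of the 12 falls. Members and lists were chosen with earlier results of these data known. The lists for terpene synthases and seed genes matched no gene. 1 gene that the rule names is not reported here.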

Additional observations from a re-analysis of the deposited data

Results flagged for a closer look

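For 22 named genes the stage difference at 38 °C differed from that at 16 °C by the interaction test in limma (adjusted p from 1.2e-05 to 0.046). Values here are the difference at 38 °C minus that at 16 °C, in log2 units. Negative values were found for HSP101 (-3.94), HsfA2 (-2.96), CHI4C (-2.07), WKRY (-1.64), the endoplasmic reticulum chaperone gene BiP (-1.42), MRIP1 (-1.0), CIPK20 (-0.65) and PIP2;2 (-0.65). Positive values were found for the flavonoid genes CHS2 (1.83), MYBC2-L1 (1.75), bZIPC22 (1.39), FLS1 (1.35) and CHS1 (0.98), for MYBCS1 (1.16), PIP1;1 (1.29), the dehydration-responsive family gene RD22-C (1.10), CIPK15 (0.90), CBL01 (0.89), CCD4b (0.86), UVR1 (0.86), CIPK14 (0.76) and ADH3 (0.49). The heated berries were sampled 1 hour later than the unheated ones, so temperature and hour cannot be told apart.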

How the results depend on the processing

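Of 148 named genes, 120 kept their direction and their side of the threshold in all 16 alternatives, 11 lost a call in at least 1, 13 gained one and 9 changed sign with a call under at least 1 of the settings compared (sign changes of genes called under neither are not counted). At 16 °C median-ratio scaling gave 5341 higher and 5630 lower, quantile normalization 5635 and 5291, and leaving the 10 most abundant genes out of the totals 3545 and 7593. At 38 °C median-ratio scaling gave 5396 and 5791. A fold of at least 2 left 6227 genes, 1182 higher and 5045 lower, and calls in one direction under all 4 scalings 7422, of them 4932 lower. The 662 positive interactions became 437 with no filter and 416 with median-ratio scaling. By that count signs changed with median-ratio scaling for ABP1 (0.52), ETR1 (0.38), MDH (0.37), MYC1 (0.037), PIP2;1 (0.40) and WRKY20 (0.045), and with quantile normalization for ABP1 (0.56), ETR1 (0.34), HSP101 (0.49), MLO6 (0.16), MYC1 (0.0028), SOR (0.38) and WRKY20 (0.0093). Median-ratio scaling shifts all genes of a library by construction. Leaving out 1 library of the comparison gave 2174 to 2338 higher and 8515 to 9081 lower at 16 °C, 2396 to 2649 higher and 7748 to 8382 lower at 38 °C, and 696 to 1061 interactions, 283 to 557 positive and 409 to 523 negative. Same-numbered replicates did not deviate together (r = -0.05 between the unheated stages). No pairing by number was seen, although such a correlation cannot exclude one. With a replicate block 2448 genes were higher and 9452 lower (2280 and 9044 in the 4 unheated libraries), with 0 of 148 named genes changing their call. Genes with a few reads in one stage have fold changes limited by depth.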

Other observations

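Further gene families differed between the stages. All 3 tested isoflavone reductase-like genes were higher after véraison, where 14.9% of all tested genes were higher on the RPKM scale. IFRL4 rose from 5.56 and 5.33 RPKM to 22.1 and 25.8 RPKM. IFRL5 rose from 159 and 138 RPKM to 207 and 245 RPKM, and IFRL6 from 239 and 208 RPKM to 358 and 540 RPKM. S-adenosylmethionine synthetases, which make the methyl donor and the precursor of ethylene, parted by gene. METK3 rose from 4.78 and 3.25 RPKM to 35.6 and 25.6 RPKM, METK5 fell from 141 and 106 RPKM to 31.3 and 21.7 RPKM, and METK2 was at 1222 and 1027 RPKM before and 1390 and 1439 RPKM after véraison. METK4 fell from 1090 and 998 RPKM to 545 and 607 RPKM on the RPKM scale and was not called with median-ratio scaling (limma adjusted p = 0.11). Of the MLO genes, a family of membrane proteins known from powdery mildew susceptibility, MLO5 fell from 121 and 113 RPKM to 25 and 30.5 RPKM and MLO15 from 38.5 and 34.8 RPKM to 8.19 and 10.6 RPKM. MLO3 rose from 7.0 and 3.98 RPKM to 16.2 and 16.0 RPKM, and MLO9 from 0.188 and 0 RPKM to 7.93 and 7.08 RPKM.

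Other large falls among named genes were PHYE, a phytochrome photoreceptor, from 23.2 and 24.1 RPKM to 1.23 and 0.799 RPKM, UVR1 from 87.1 and 76.6 RPKM to 3.93 and 5.29 RPKM, RD22-C from 24.6 and 20.7 RPKM to 0.746 and 0.704 RPKM and VPRP1 from 96.1 and 90.1 RPKM to 2.88 and 7.68 RPKM. GCAT, among the most abundant named genes in green berries, fell from 1468 and 1225 RPKM to 473 and 663 RPKM.

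On the scale of log2(RPKM + 1) the largest rise and the largest fall of all tested genes were in genes with only a placeholder symbol. LOC100264626 went from 1.18 and 0.405 RPKM before véraison to 1338 and 1236 RPKM after it, a log2 difference of 9.52 (limma adjusted p = 6.1e-09). LOC100264738 went from 10.8 and 8.93 RPKM to 3169 and 4555 RPKM, LOC100263489 from 5.25 and 5.11 RPKM to 1461 and 1660 RPKM, and LOC100248431 from 0.213 and 0.182 RPKM to 299 and 294 RPKM. In the other direction, LOC100257854 went from 288 and 318 RPKM to 0 and 1.46 RPKM, a log2 difference of -7.60 (limma adjusted p = 1.9e-08), LOC100262729 from 230 and 193 RPKM to 0 and 0.456 RPKM, LOC100256970 from 595 and 705 RPKM to 3.49 and 6.69 RPKM, and LOC100241745 from 241 and 241 RPKM to 1.74 and 1.36 RPKM.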
